A study of Caenorhabditis elegans with 2 samples.

Results

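The genes described are those of the CDC-48 machine of the nematode Caenorhabditis elegans: cdc-48.1 and cdc-48.2, which encode the ATPase itself, and ufd-1, npl-4.1 and npl-4.2, which encode its substrate-recruiting cofactors. They are 5 of the 19985 protein-coding genes of the annotation. They were chosen by a measured value, the strong ChIP-seq summit upstream of cdc-48.1, and by their known relation to that gene, so the counts and signal values at cdc-48.1 are a description and had no test. A strong summit lay 158 bp upstream of cdc-48.1 in the pooled reads, and the summits of both replicates lay within 20 bp of it. Its paralogue cdc-48.2 had only summits of ordinary strength. The cofactor gene ufd-1 had 1 such summit, in the pooled list alone, and the duplicated npl-4 genes had 0 summits.

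CDC-48, called p97 or VCP in mammals, is a ring-shaped ATPase of the AAA family that pulls ubiquitinated proteins out of membranes, chromatin and complexes so that the proteasome can degrade them. UFD-1 and NPL-4 form a heterodimer that binds the ubiquitin chain and docks it on the ring. In this animal the machine is known for endoplasmic reticulum-associated degradation (ERAD), for removing the replicative helicase from chromatin and for embryonic cell division, and the cdc-48 paralogues act redundantly in the embryo.

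The assay was ChIP-seq of CEH-82 (gene F45C12.2), a homeobox protein, in whole L4 larvae of strain OP212, both sexes mixed. The worms carried unc-119(ed3) III and the transgene ddEx58, which gives the protein a GFP-FLAG tag at its C-terminal end, and both replicates share all of these. The group had 2 biological replicates and there was no second group, so the lists below are compared with each other and the genes with all protein-coding genes. The sources used here do not say which promoter or cells drive the transgene, and the control against which the authors called peaks was not analysed here, so the summits do not show that CEH-82 binds any of these genes.

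On the build ce11 there were 4561 peaks in the list of replicate 1, 8651 in that of replicate 2 and 15658 in that of the pooled reads, all called loosely. A further list of 57 peaks is the set that the authors kept after thresholding on reproducibility, called thresholded below. A signal value is the score the authors' caller gave a peak relative to the control, on a scale that is not stated. It ranks peaks within a list and is not compared in size between lists. The 57 thresholded peaks were also the 57 strongest of the pooled list, with the same coordinates and signal values, so these are not separate measurements. Read depth is unknown from these lists. Because whole larvae were used, weak signal in many cells and strong signal in few cells cannot be told apart. A summit was given to a gene when it lay between 2000 bp upstream of the gene start and 500 bp past the gene end, and a negative distance lies upstream of the start.

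The sequence under the cdc-48.1 summit is shown because it carries the strongest signal at these genes. The sequence just upstream of cdc-48.2 is shown as that of the paralogue without such a summit, and that upstream of npl-4.1 because npl-4.2 has exactly the same. Each is 300 bp of the RefSeq assembly WBcel235 (ce11) on the strand of its gene, 5' to 3', and overlaps no annotated gene. Capitals mark matches to 4 words searched on both strands: ATTA, the core of many homeodomain sites; ACGTG, the core of the unfolded protein response element; TTCNNGAA, a pair of heat shock factor half-sites; and GTTCGANNC, the B box of genes read by RNA polymerase III.
cdc-48.1 summit, II:10563415-10563714, minus strand: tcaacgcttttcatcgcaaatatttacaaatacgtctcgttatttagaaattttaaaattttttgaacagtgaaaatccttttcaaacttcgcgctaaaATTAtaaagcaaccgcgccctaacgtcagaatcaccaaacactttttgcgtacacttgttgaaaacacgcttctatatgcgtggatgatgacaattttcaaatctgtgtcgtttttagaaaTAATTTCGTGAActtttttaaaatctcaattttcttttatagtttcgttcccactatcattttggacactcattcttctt
cdc-48.2 upstream, II:8138196-8138495, plus strand: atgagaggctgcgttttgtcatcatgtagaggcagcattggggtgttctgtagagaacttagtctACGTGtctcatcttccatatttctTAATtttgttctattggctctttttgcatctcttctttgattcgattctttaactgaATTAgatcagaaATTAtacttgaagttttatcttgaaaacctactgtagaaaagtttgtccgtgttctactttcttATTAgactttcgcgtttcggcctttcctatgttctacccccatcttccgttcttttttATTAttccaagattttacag
npl-4.1 upstream, II:5631051-5631350, plus strand: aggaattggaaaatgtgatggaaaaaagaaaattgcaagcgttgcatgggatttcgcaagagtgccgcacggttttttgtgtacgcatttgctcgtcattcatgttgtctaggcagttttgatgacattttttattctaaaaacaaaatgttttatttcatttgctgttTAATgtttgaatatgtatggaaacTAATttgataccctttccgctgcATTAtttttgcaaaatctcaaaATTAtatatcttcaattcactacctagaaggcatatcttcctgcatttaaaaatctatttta

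Under the cdc-48.1 summit ATTA occurred at 2 positions, 100 and 221 from the 5' end of the window, and TTCNNGAA once at position 225, directly after the second ATTA and without overlap. ACGTG and the B box were not matched in that window. ATTA was present in 89.5% of windows around the 57 thresholded summits and in 96.0% of the 300 bp windows upstream of all protein-coding starts, so a match is usual. The windows upstream of cdc-48.2, npl-4.1 and npl-4.2 held more ATTA matches than the summit window, 5, 4 and 4. TTCNNGAA was rarer, in 2 of the 57 thresholded windows (3.51%), the cdc-48.1 window itself being among them. It was in 19.5% of the windows around the 15658 pooled summits and in 18.0% of those upstream of all protein-coding starts. The thresholded share rests on a count of 2. ACGTG was found once upstream of cdc-48.2, at position 66, and in 27.2% of the windows upstream of all starts. The window upstream of ufd-1 overlaps F19B6.1 and is not shown; it held 5 ATTA matches and ACGTG at positions 158 and 159, on the opposite strands of a CACGTG palindrome. The cdc-48.1 summit window had 32% G and C bases, and 78.9% of the thresholded windows had a higher share. Of the windows upstream of all protein-coding starts, 59.5% had a higher share, and their median was 33.3%. A match is a string of letters and was not tested as a binding site.

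cdc-48.1 (WBGene00007352, II:10560036-10563407, minus strand) has 5 exons and encodes 809 residues. Its thresholded peak covered II:10563380-10563749 with a signal value of 31.9, which was rank 14 of the 57 thresholded and of the 15658 pooled peaks. The peak in replicate 1, II:10563350-10563819, had a signal value of 9.04 and rank 40 of 4561. The peak in replicate 2, II:10563351-10563766, had a signal value of 23.1 and rank 14 of 8651. The gene was therefore among the strongest 0.877% of peaks in replicate 1, the strongest 0.162% in replicate 2 and the strongest 0.0894% in the pooled list. In each of these lists its −log10 q-value was the highest the list holds (3.29, 2.81 and 2.32), a ceiling at which 974, 3545 and 2831 peaks of these lists stand. Of the neighbours in rank in the thresholded list, the peak nearest to F22H10.2 had 35.9 at rank 13 and that nearest to F19H6.5 had 30.6 at rank 15, both on the X chromosome. Only 3 autosomal peaks of the thresholded list had higher signal values, those at rpl-3, tasp-1 and rpl-15.

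The summit lay at -158 bp from the gene start in the pooled reads, at -178 bp in replicate 1 and at -152 bp in replicate 2. These positions differ by less than the peak widths of 370 to 470 bp. The width is nearly constant within a list (370 bp for 15651 of the 15658 pooled peaks), so the edges follow from the summit. How finely a summit was placed is not known from these lists. The peak reached over the annotated start into the first bases of exon 1, and the summit itself was intergenic. Upstream, the nearest protein-coding gene was C06A1.6 (II:10564112-10564678, also on the minus strand), whose 3' end lay 547 bp from the summit. C06A1.7, on the plus strand with its start 1326 bp from the summit, came next. Its window reaches 2000 bp upstream of that start, so the window rule gives this summit to C06A1.7 as well as to cdc-48.1. The summit is thus between the end of one gene and the start of cdc-48.1, the only protein-coding start within 1 kb of it.

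A pair of snoRNA genes lies inside cdc-48.1. Small nucleolar RNAs guide chemical modification of other RNAs and are often processed from introns. C06A1.9 (WBGene00045152, II:10562952-10563064) is 113 bp long in the 278 bp intron 1, on the strand of its host. Its start lay 501 bp downstream of the summit and 316 bp beyond the edge of the peak. C06A1.8 (WBGene00045148, II:10560717-10560934) is 218 bp long in the 255 bp intron 3, 2631 bp downstream of the summit. The other introns, of 46 and 49 bp, hold no annotated gene. Neither snoRNA gene touched the peak, but its edges follow from the summit and a nearly constant width. They do not measure how far the signal reached. In no list did a summit fall inside either snoRNA gene. The summit lies upstream of the host and of both snoRNA genes at once, and which of these starts it belongs to was not tested.

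**Figure D1:**
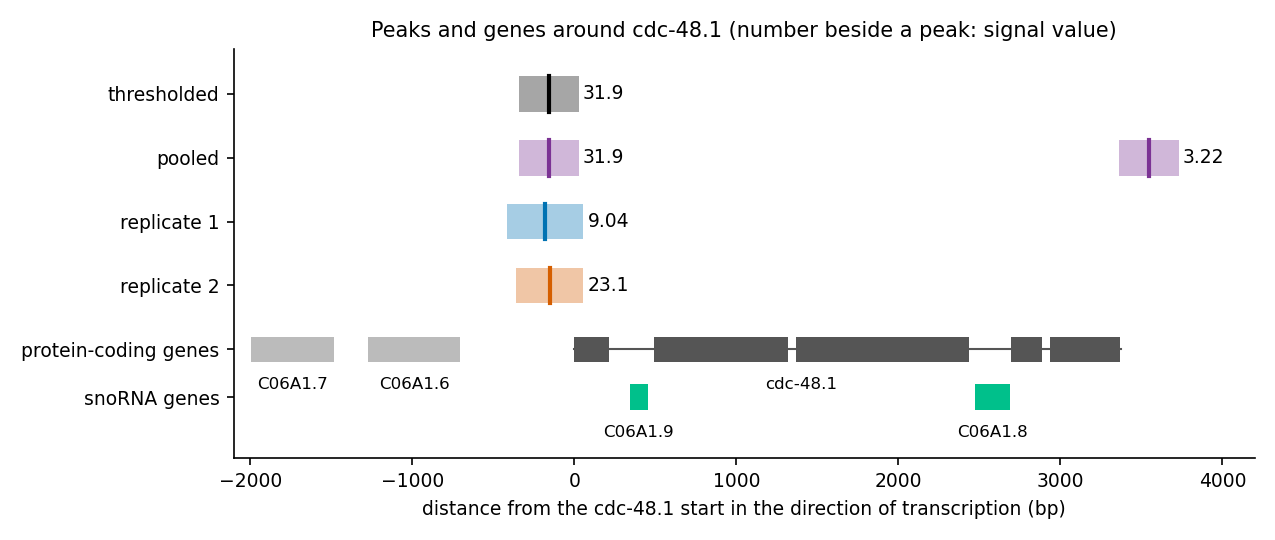
Peaks around cdc-48.1 by list (bars, with a line at the summit) above the annotated genes, against distance from the gene start in the direction of transcription in bp. The peaks with signal values of 31.9 (pooled), 9.04 (replicate 1) and 23.1 (replicate 2) all cover the start and stop short of the snoRNA gene C06A1.9, and the second pooled peak (3.22) has its summit past the gene end. Peak width is nearly constant within each list, so the bars do not measure how far the signal reached.

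The window of cdc-48.1 held 1 more pooled summit, at +3547 bp and past the gene end, nearest to the start of C06A1.8 among all genes. Its peak, II:10559675-10560044, had a signal value of 3.22 and rank 6446, in the strongest 41.2% of the pooled list. No peak of either replicate overlapped it.

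cdc-48.2 (WBGene00008053, II:8138496-8141230, plus strand) encodes 810 residues and also has 5 exons. It had 0 thresholded summits, and the nearest lay 423 kb away at iff-2. The pooled list had a summit at +130 bp in an intron, with a signal value of 2.77 and rank 9024. A second pooled summit at +898 bp, in coding exon 3, had a signal value of 3.09 and rank 7100. Both lay inside the gene and none upstream of it. Replicate 2 had a summit near each of them, at +237 bp with a signal value of 3.14 and at +966 bp with 2.68. Replicate 1 had none in the window, and its nearest summit was at +6055 bp in a coding exon of rpl-10, with a signal value of 5.34. The pooled values lie around that list's median of 2.95, and the stronger of them placed the gene 6308th of 10678 genes with a pooled summit. Between the paralogues the proteins were identical at 88.1% of aligned positions and the coding DNA at 75.4%. The 300 bp before the starts were identical at 46.8% of 340 columns, 80 of them gaps, and unrelated stretches were not aligned for comparison. No 36-base word of the cdc-48.2 window, and none in the cdc-48.1 gene or its thresholded peak, occurred anywhere else in the genome, so reads of that length can tell the paralogues apart.

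ufd-1 (WBGene00006733, IV:12329408-12330890, minus strand) encodes the 342-residue ubiquitin-binding partner of NPL-4. Its only summit was in the pooled list, at -1458 bp in an intron of the neighbouring gene F19B6.1, IV:12332163-12332532. The signal value was 3.11 at rank 6978, and no peak of either replicate overlapped it. The nearest summits of the replicate lists were farther out, at -4017 bp in replicate 1 (3.02) and at -2587 bp in replicate 2 (2.11), both also in introns of F19B6.1. The nearest thresholded summit, at rpl-12, was 910 kb away. By its strongest pooled summit ufd-1 stood 6236th of the 10678 genes, next to cdc-48.2 and far below cdc-48.1. The latter stood 14th, level with C06A1.7, whose window holds the same summit.

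**Figure D2:**
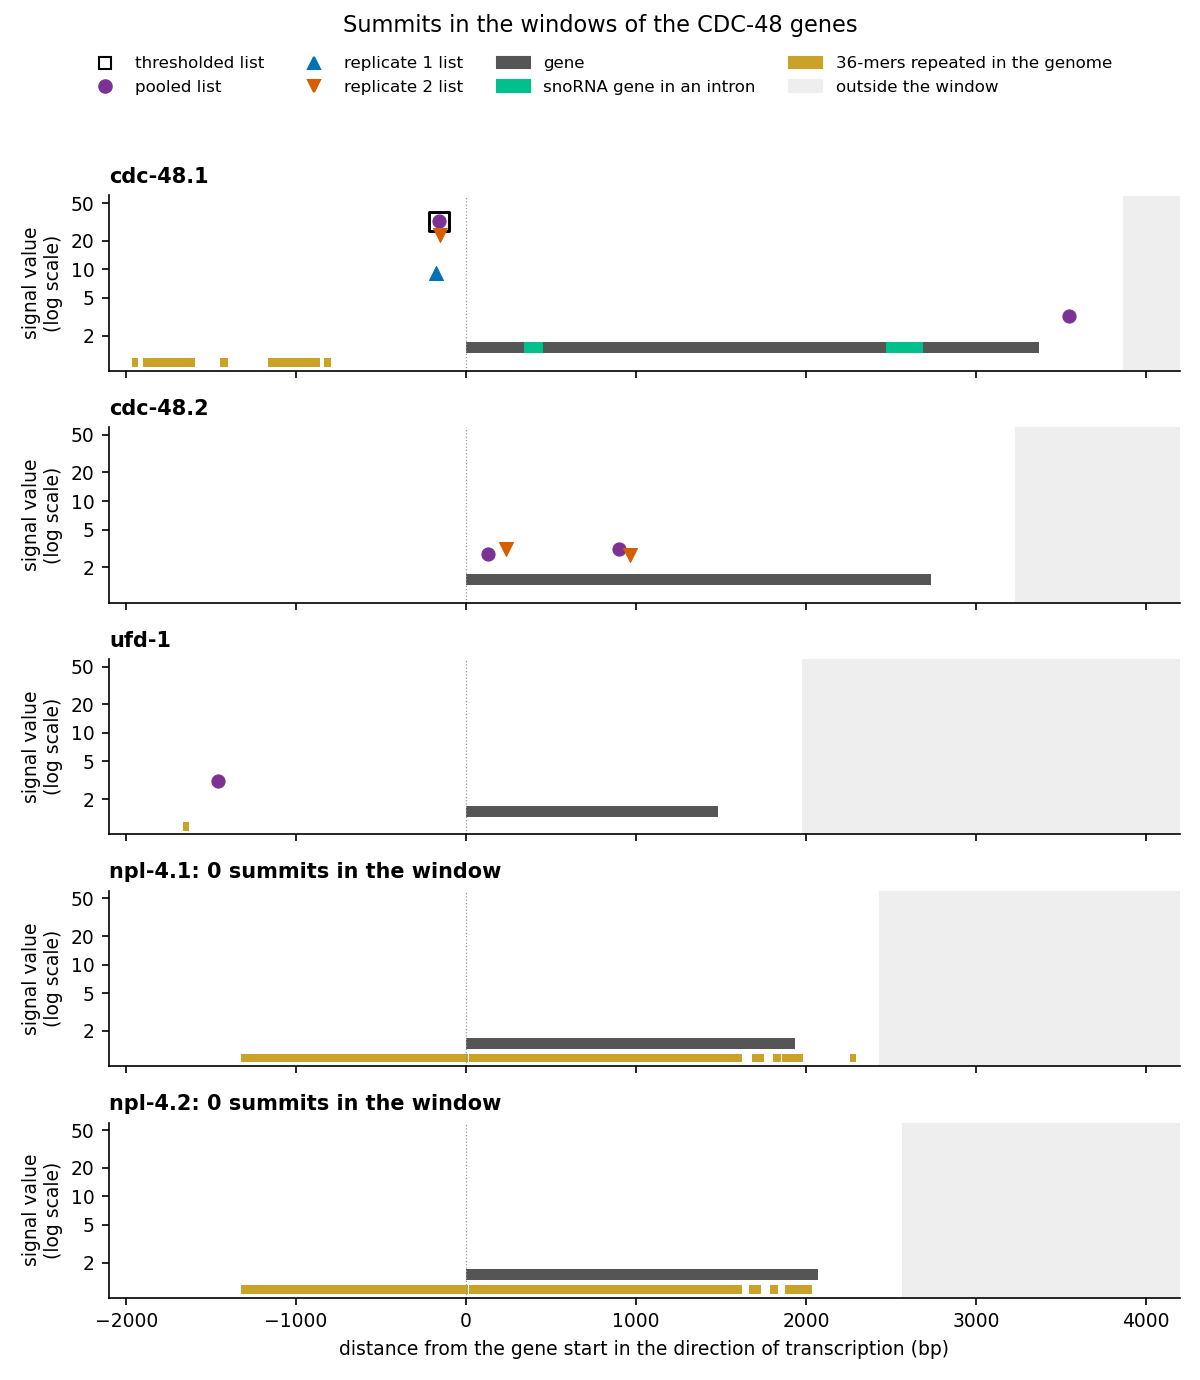
Summits of the 4 lists in the windows of the 5 genes: signal value on a log axis against distance from the gene start in bp, with the gene, the snoRNA genes and stretches of repeated 36-base words drawn below. The cdc-48.1 summits between 9.04 and 31.9 stand above all others, which lie between 2.68 and 3.22, and the npl-4 windows are empty over long repeated stretches.

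**Figure D3:**
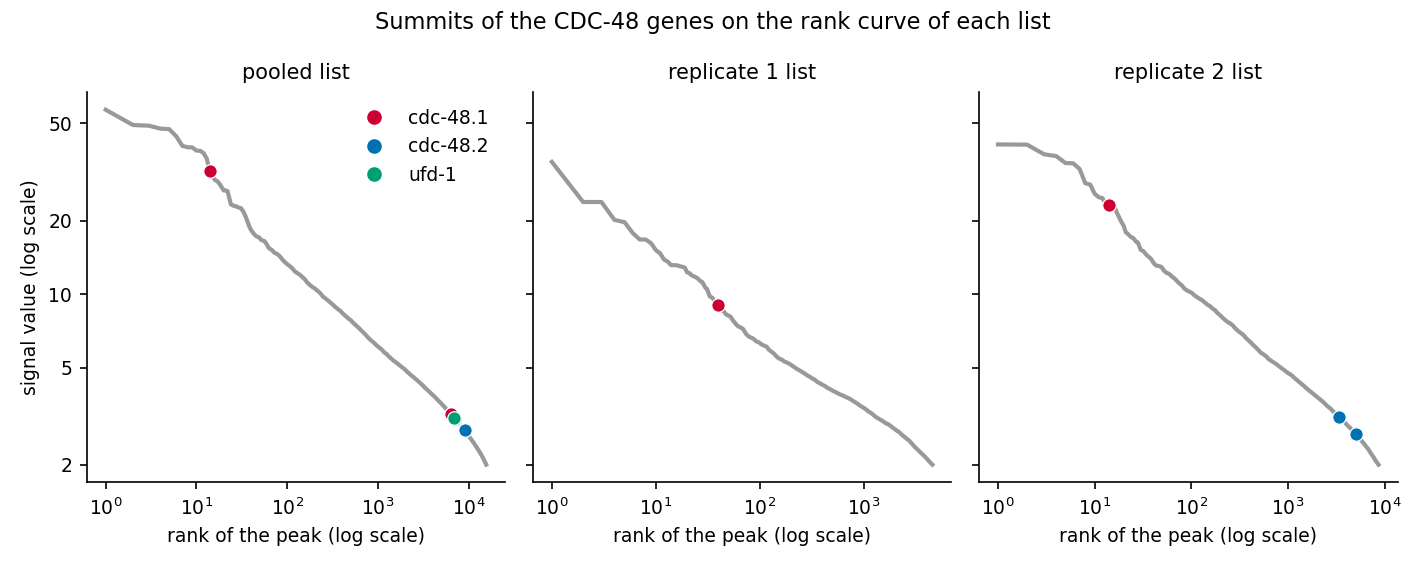
Signal value against rank, both on log axes, for all peaks of the pooled list and of each replicate (grey curves), with the summits of the CDC-48 genes as points. The upstream summit of cdc-48.1 sits at rank 14, 40 and 14, while the other points lie at ranks 3398 to 9024; in the pooled panel the ufd-1 point at 6978 hides that of cdc-48.2 at 7100.

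npl-4.1 (WBGene00019120, II:5631351-5633284) and npl-4.2 (WBGene00019121, II:5622889-5624959), both on the plus strand, encode the other cofactor of the heterodimer, and each has 529 residues. In all 4 lists the windows of both genes held 0 summits. The nearest pooled summit to npl-4.1 was at +4417 bp, in a coding exon of F59E12.8, with a signal value of 2.07. The nearest to npl-4.2 was at -3446 bp, close to the start of dhs-6, with 2.64. The value near npl-4.1 is close to the pooled minimum of 2.00, and that near npl-4.2 lies between the minimum and the median of 2.95. The nearest thresholded summit to both, in exon 1 of mdt-26 with a signal value of 19.0, lay 29.9 kb from npl-4.1 and 38.4 kb from npl-4.2.

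The npl-4 genes are near-identical neighbours. Their proteins were identical at 524 of 529 positions, their coding DNA at 99.5% and the 300 bp before their starts at 100%. Identical sequence ran without a break from -1325 bp to +13 bp of each start, a stretch of 1339 bp, and after 1 differing base for another 1375 bp. Of the 36-base words in the window, 67.7% in npl-4.1 and 66.2% in npl-4.2 occurred more than once in the genome, against 7.93% of all words of the genome. The share was 8.34% in the cdc-48.1 window, all of it beyond -797 bp where C06A1.6 and C06A1.7 mostly match each other, 0.0507% in ufd-1 and 0% in cdc-48.2. A read inside such a stretch fits both npl-4 copies, so these lists cannot say which copy it came from. The read length and the treatment of reads with several matches were not stated in the labels or lists.

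Across all genes, summits were rare where sequence is repeated. Of the 337 protein-coding genes with a window at least 60% repeated, a level chosen after the npl-4 values were seen, 21 held a pooled summit (6.23%), against 54.2% of the other 19648 genes. The shares were 0.890% and 22.7% in replicate 1, and 3.26% and 36.5% in replicate 2. In the thresholded list 0 of the 337 held one, which allows a share of up to 0.890%, against 0.458% of the others. Of the pooled summits themselves, 1.49% lay on a repeated word, and of the 57 thresholded summits 0 did, which allows up to 5.26%. Both limits read a count of 0 as at most 3 and cover counting error only. They treat the genes or summits as separate draws, although windows of neighbouring genes can share a summit. Whether repetition accounts for the empty npl-4 windows was not tested.

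**Figure D4:**
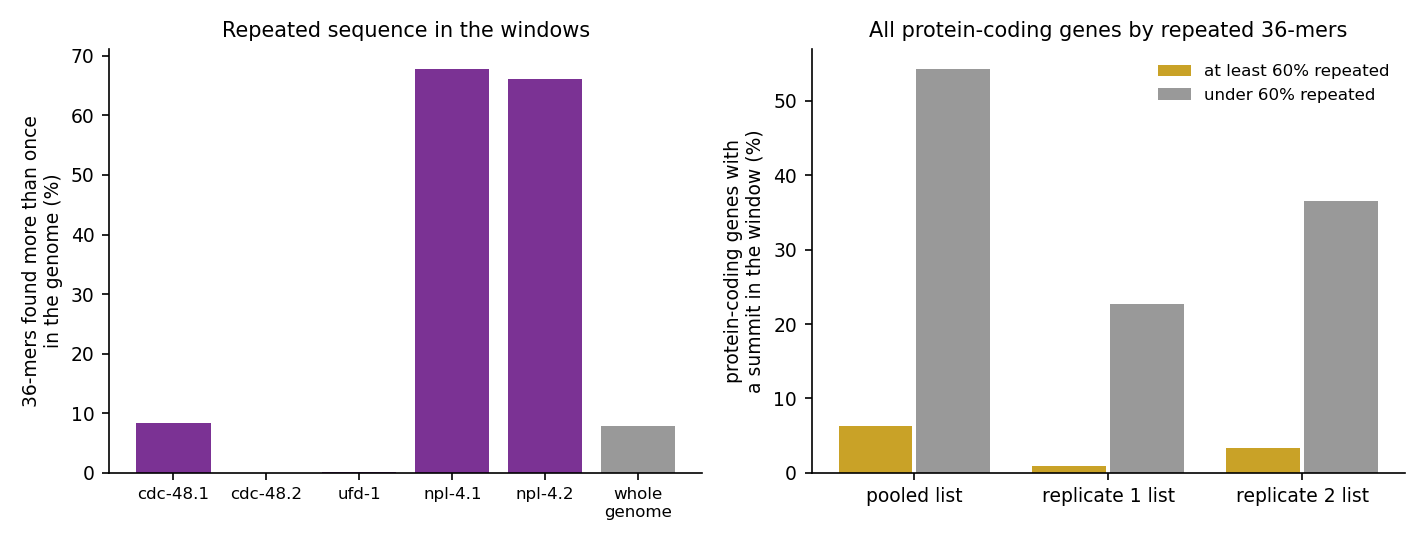
Left, the percentage of 36-base words found more than once in the genome, for the windows of the 5 genes and for the whole genome; right, the percentage of protein-coding genes with a summit in their window, for the 337 genes at least 60% repeated and the 19648 others, by list. The npl-4 windows stand at 67.7% and 66.2% against 7.93% in the genome, and 6.23% of the repeated genes have a pooled summit against 54.2% of the others.

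In all, 1 of the 5 genes held a thresholded summit, cdc-48.1, against 0.45% of all protein-coding genes, and that contrast chose the genes. In the pooled list 3 of 5 held one, against 53.4% of all genes, a share near the background. Among the 1000 strongest pooled peaks it was 1 of 5, cdc-48.1 again, against 6.34%. In replicate 1 it was 1 of 5, against 22.3%, and in replicate 2 it was 2 of 5, cdc-48.1 and cdc-48.2, against 35.9%. Outside cdc-48.1, 2 of the 4 other genes had a pooled summit, against 53.4% of all genes, with windows of similar length (median 4571 bp for the 5 genes and 4526 bp for all).

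Within 20 kb of the start there were 16 pooled peaks at cdc-48.1 and 14 at cdc-48.2, against a median of 6 (quartiles 4 and 8) over all genes. There were 3 at ufd-1, 5 at npl-4.1 and 2 at npl-4.2. In the replicates, cdc-48.1 had 7 and 11 peaks and cdc-48.2 had 3 and 10, against medians of 2 and 3 over all genes. The other genes had 3 peaks each in replicate 1, as many as cdc-48.2, and in replicate 2 there was 1 at ufd-1, 1 at npl-4.1 and 0 at npl-4.2. The strongest pooled peak within 20 kb was 31.9 for cdc-48.1, its own, 10.1 for cdc-48.2, 10.5 for npl-4.1, 3.11 for ufd-1 and 2.64 for npl-4.2.

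The genes most like cdc-48.1 were taken as those with a thresholded summit up to 500 bp upstream of the nearest protein-coding start and a peak in both replicates, ordered by how close the signal value was to 31.9. Of the 57 peaks, 19 lay in that position and 14 of these were in both replicates. Nearest in signal value were eelo-2 on IV (26.6, at -236 bp) and rpl-35 on III (26.0, at -465 bp), the second a gene of the large ribosomal subunit. Then came rpl-15 on IV (39.96, at -317 bp), another of that subunit, tasp-1 on III (40.5, at -54 bp) and vig-1 on II (22.3, at -425 bp). In replicate 1 their ranks were 36 for eelo-2, 15 for rpl-35, 1968 for rpl-15, 27 for tasp-1 and 1057 for vig-1, beside 40 for cdc-48.1. In replicate 2 they were 27, 31, 6, 8 and 22 in the same order, beside 14 for cdc-48.1. cdc-48.1, eelo-2, rpl-35 and tasp-1 were thus near the top of both replicate lists, whereas rpl-15 and vig-1 were near the top of replicate 2 only. Of the 48 thresholded peaks found in both replicates, 19 had a better rank in replicate 1 than cdc-48.1.

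The wider pathway was read from a list of 28 genes: 10 for other cofactors of CDC-48, 6 for ERAD, 4 for ubiquitin partners, 6 for endoplasmic reticulum stress and 2 for related ATPases. The list was chosen with earlier results of these data known, so its counts are a description. No gene of it held a thresholded summit (0 of 28), against 0.45% of all genes. Reading 0 as at most 3 counts would give 10.7%, which shows only how short the list is, because its genes were not drawn at random. In the pooled list 25 of the 28 did (89.3%), against 53.4% of all genes. Among the 1000 strongest pooled peaks it was 5 of 28 (17.9%), against 6.34%. In replicate 1 it was 12 (42.9%), against 22.3%, and in replicate 2 it was 19 (67.9%), against 35.9%. The windows of the pathway genes were longer (median 5377 bp, against 4526 bp), and in a window of the same length for every gene, from 1000 bp before the start to 500 bp after it, 14 of 28 had a pooled summit (50%), against 24.98% of all genes. Among genes with a pooled summit the median of the strongest signal value was 4.26 in the pathway and 3.38 over all genes.

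Of the 6 genes of the endoplasmic reticulum stress list, 3 had a summit among the 1000 strongest pooled peaks, against 6.34% of all genes. Within that list hsp-3, atf-6 and pek-1 lie on the X chromosome, and the share for genes of that chromosome alone was not counted. xbp-1, whose RNA is spliced in the unfolded protein response, had the strongest, 12.7 at rank 113, which lay past the gene at +1751 bp, slightly closer to the start of asd-1 (-1725 bp). It ranked 28 in replicate 1 (11.2) and 884 in replicate 2 (4.93), where the strongest summit of the window lay at +1471 bp. hsp-3, for a BiP-type chaperone, had 12.1 at rank 131 and -37 bp. Its strongest summits in the replicates were 3.92 at -37 bp in replicate 1 and 10.5 at -106 bp in replicate 2. atf-6, for a membrane-bound transcription factor of the same response, had 6.23 at -483 bp, with 6.73 at -461 bp in replicate 2 and no summit in replicate 1. pek-1 had 5.73 at +4984 bp, intergenic and closer to the start of F08B12.4 (-2171 bp), with no summit in replicate 2. ire-1 had 2.95 at +118 bp. hsp-4, the other BiP gene, had 3.64 at -1476 bp, in coding exon 6 of haf-2, with no summit in replicate 1. xbp-1 and hsp-3 were the pathway genes nearest to the thresholded list, whose lowest signal value was 16.4, and both had a peak in each replicate.

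Among the other cofactors 8 of 10 had a pooled summit, against 53.4% of all genes. In replicate 1 it was 2 of 10, against 22.3%, a share near the background, and in replicate 2 it was 6 of 10, against 35.9%. ubxn-3, for a UBX-domain cofactor of the replication-linked role, had the strongest, 9.12 at rank 314. It lay at +3883 bp and closer to the start of F48A11.4 (-163 bp), with 8.08 in replicate 2 and none in replicate 1. ubxn-1 had 6.05 at -2000 bp, on the edge of the window and in a coding exon of F23C8.8, with 4.15 in replicate 1 and none in replicate 2. ufd-2, a ubiquitin chain-elongating enzyme, had 4.74 in its own coding exon 3, with 3.87 in replicate 2 only. ubxn-5 and ubxn-6 had no pooled summit, and ubxn-6 had 1 of 3.49 in replicate 2.

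Of the 6 ERAD genes 5 had a pooled summit, and of the 4 ubiquitin partners all 4 did, against 53.4% of all genes. der-2, for a Derlin-type membrane protein, had 7.82 at rank 498 and +1613 bp, with 3.90 in replicate 1 and 3.39 in replicate 2. sel-11, for the Hrd1-type ubiquitin ligase, had none in any list. Among the ubiquitin partners, chn-1, for a CHIP-type ligase, had 5.32 at +2804 bp, closer to tin-44, with 2.25 in replicate 1 and none in replicate 2. hecd-1, for a HECT-type ligase, had 5.26 at +8241 bp, with 4.60 at +8190 bp in replicate 1. Its strongest summit in replicate 2, 5.52, lay elsewhere in the gene, at +4645 bp. The related ATPase genes cdc-48.3 and nsf-1 had 3.75 and 3.19. None of these values reached the upstream summit of cdc-48.1, and none of the 28 genes had its strongest pooled summit in the highest 100 of the list.

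**Figure D5:**
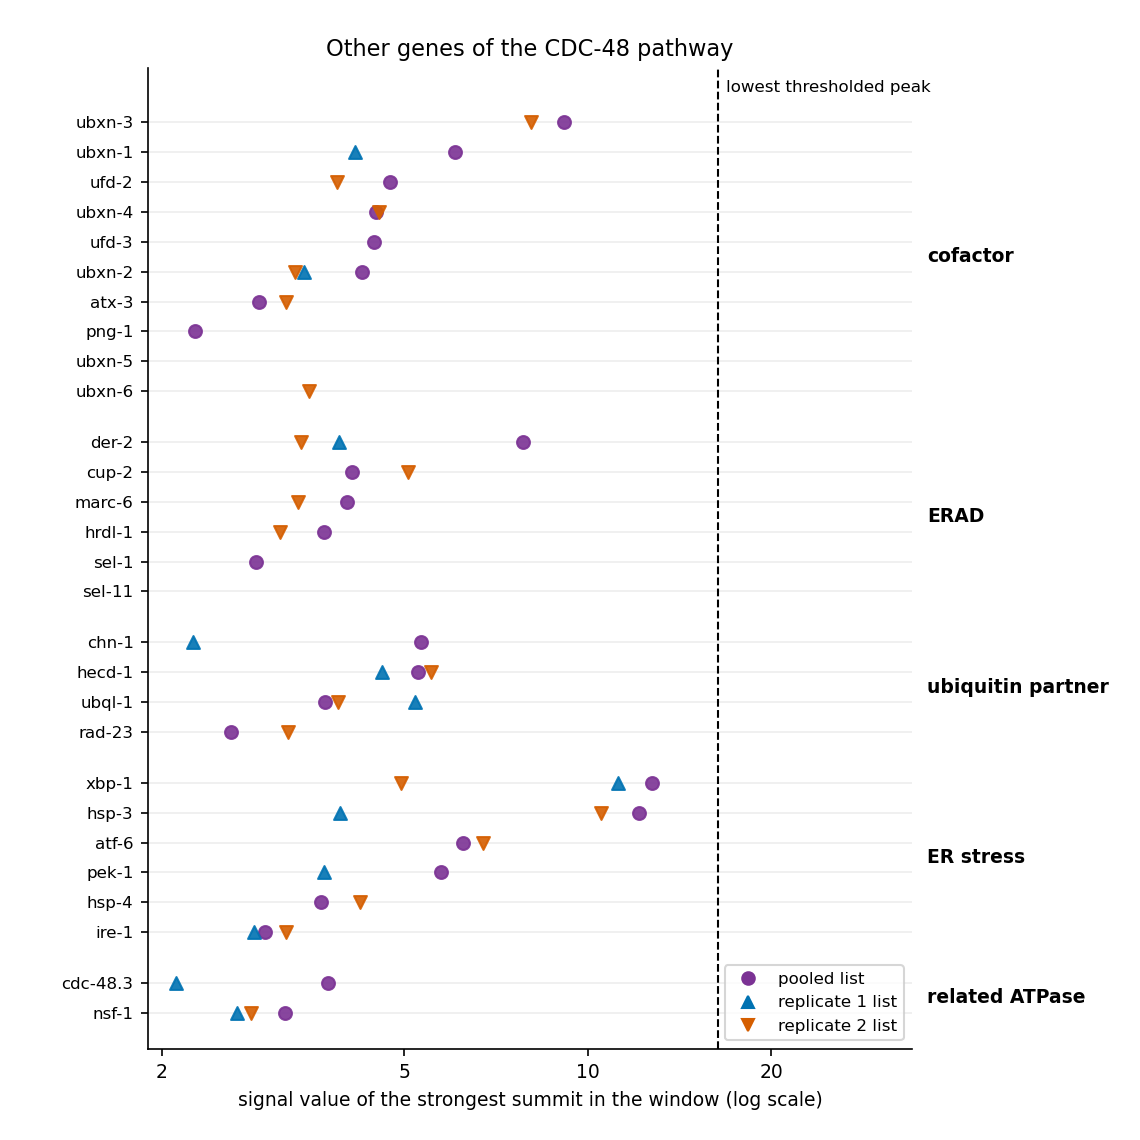
Signal value of the strongest summit in the window, on a log axis, for the 28 other pathway genes by list, grouped by role and ordered by pooled signal value. All pooled points lie left of the dashed line at the lowest thresholded peak (16.4), which has its pooled signal value, and xbp-1 (12.7) and hsp-3 (12.1) come closest.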

How the data were processed

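ChIP-seq peak lists of 2 replicates of 1 group were used as deposited, on ce11. The signal value of a peak is a score that the authors deposited, relative to a control. The −log10 q-value was deposited by the authors in the narrowPeak column for it. The peak caller, the aligner and the cutoff of the reproducibility step (IDR) were not stated in the labels or file headers. Lists of each replicate and of the pooled reads hold peaks and background, per the deposited text that names the files. The ce10 lists were not used here.

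Summits were placed in windows from 2000 bp upstream of the start to 500 bp past the gene end, with Ensembl release 115 genes and RefSeq sequence of WBcel235. Lists overlapped when peaks shared at least 1 bp. Repeated words of 36 bases were counted on both strands of the genome. Identity was counted over all columns of a global alignment, gaps included. Python 3.11.15, pandas 2.3.3, numpy 2.4.6, Biopython 1.88 and matplotlib 3.10.9 were used. Only the limits of the gene windows and the reverse complement were tested on simulated cases with known answers.

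The 5 genes and the pathway list were chosen with earlier results of these data known. No test was run: counts stand beside the share over all protein-coding genes. The genes named were the 5, those holding or nearest to a summit of their windows, those around the cdc-48.1 summit, pathway genes with a summit among the 1000 strongest pooled peaks and 5 more by signal value, and the 5 most like cdc-48.1. Other genes named were chosen after their values were seen. Alternatives changed the window, the list, the overlap and the replicate. The depth of each sample is unknown, and signal values therefore carry no interval.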

Additional observations from a re-analysis of the deposited data

How the results depend on the processing

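The summit upstream of cdc-48.1, at -158 bp and rank 14, lies inside every window tried and in the stronger 29 of the 57 thresholded peaks. These alternatives therefore could not remove it. The thresholded counts stayed at 1 of the 5 genes and 0 of the 28 pathway genes. A narrower window or the stronger 29 peaks could not have raised them. Of the 5 genes, 3 held a pooled summit and 1 did with the 1000 strongest peaks; with a single replicate's list the count ran from 1 to 2. Pathway genes with a pooled summit numbered 25, but 14 with a window of 1000 bp before the start and 500 bp after it (50%, against 24.98% of all genes) and 5 with the 1000 strongest peaks; with a single replicate's list they ran from 12 to 19, 12 being the list of replicate 1. The rank of cdc-48.1, 0.0894% of the pooled list, ran from 0.162% to 0.877% in the replicates. The strongest cdc-48.2 summit, 3.09, was 2.77 in the narrower window, and its rank of 45.3% was 39.3% in replicate 2 alone, with no value in replicate 1. ufd-1 had no summit in either narrower window. Words of 50 bases, added after seeing the data, gave 66.0% repeated for npl-4.1 and 64.1% for npl-4.2. The cause of these differences was not tested. No paired analysis was possible because the series holds 1 group. The unknown depth, peak widths of 370 to 470 bp and the unanalysed control limit what absence of a summit shows.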
